A study of Brassica napus with 24 samples.

Results

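The 200 genes described here were selected on their leaf expression in *Brassica napus*, as genes whose mRNA fell with leaf age in well-watered plants while the ratio of water deficit (WD) to control stayed near 1 at the late harvests. Levels were in CPM, the count of read pairs on a gene scaled by the total count on all genes of that library. A gene had to reach at least 1 CPM in every control library of 5 d and to lie above every control library of 20 d. Its WD-to-control ratio, as log2 of the group means with 0.5 CPM added, had to lie between -0.3 and 0.3 at both 18 d and 20 d. Of 101040 genes in the files, 41318 met the first condition, 6812 also met the second, 1755 met all of them, and the 200 with the lowest ratio of control 20 d to control 5 d were kept.

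Leaf blades of the wild-type cultivar Trezzor that had grown since the start of the water shortage were collected in a greenhouse, and polyadenylated RNA was sequenced. WD plants were left unwatered, at 5 d (labelled as the harvest below 50% of field capacity, FC) and at 11 d (25% FC), or were then held at 50% FC and harvested at 18 d, or held at 25% FC and harvested at 20 d. Control plants of 5 d, 11 d, 18 d and 20 d were kept at 80% FC. Each of the 8 groups had 3 libraries, each from 2 pooled plants according to the methods of the study, or 24 libraries in all. Days count from the stop of watering, and the 11 d libraries were recognised by their soil water content, because their labels carry the harvest date of the 5 d harvest. The 18 d group is defined here by its labels and dates, and the plants of different harvests were different plants.

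A leaf that is still growing expresses genes of cell division and expansion and builds its chloroplasts, which need chlorophyll and a translation machinery of bacterial type. As the blade matures, mRNAs of these programmes decline, and in old leaves breakdown and export of nutrients take over. Water deficit is known to slow leaf growth and can also hasten senescence. In whole leaf blades, fewer cells of a type and less RNA per cell cannot be told apart.

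The files held 15987514 to 38302873 read pairs per library (median 18993574), of which 13263953 to 31112368 were counted on genes on the annotated strand (median 15710704). Pairs that fitted several loci, 7.77% to 9.45% of a library, were counted on no gene, so pairs shared by near-identical copies of the A and C subgenomes are missing from both copies. On the strand opposite to the annotation, the members' loci held 0.0728% to 0.225% of their pairs, against 0.301% to 0.479% for all genes. Of the photosynthesis genes with annotation text, 5 were tested, among them chlorophyll a/b binding proteins, and all 5 were above 0 in every library, with a summed level of 81.4 to 266 CPM.

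Libraries of 1 group could lie far apart. Over all 54835 genes tested, each library was projected on the line between the mean of control 5 d (0) and the mean of control 20 d (1). Genes that differ more between these 2 means weigh more in this position. The control 11 d libraries stood at 0.214, 0.636 and 0.970 (replicates 1, 2 and 3), spread over most of that line. WD 18 d replicate 3 stood at 0.226, against 0.665 and 0.700 for replicates 1 and 2. The WD 11 d libraries lay at 0.297, 0.194 and 0.343, and the control 18 d libraries at 0.866, 0.912 and 0.800. Results that use control 11 d or WD 18 d are therefore also given with libraries left out.

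The names of these genes were little help in reading them. None of the 200 IDs matched the reference gene table, which is of another assembly (Da-Ae). None had a symbol, and 2 had annotation text, out of 1999 genes for which such text was read. The text came from the supplementary data that the paper cites for its differentially expressed genes under water deficit. Symbols were read for the paper's 114 genes of ion transport. Text was read for far fewer genes than the paper reports as differentially expressed. The members were also selected for little difference between WD and control at late harvests. The low number with text is therefore not read as poor annotation, and how much each point adds to it was not tested. The 2 members with text, BnaAnng06210D and BnaCnng38690D, are listed in those supplementary data, and why was not examined. The 15 gene lists prepared for leaf growth, photosynthesis, cell wall, hormones, senescence and other themes were searched in that text. None of their genes was among the 1755 that met the conditions, so the lists say nothing about the members. The IDs place 104 members (52.0%) on the A subgenome and 96 (48%) on the C subgenome, against 48.1% and 51.6% of all tested genes. Chromosomes A03, with 22 members (11%, against 6.76% of tested genes), and C01, with 18 (9.0%, against 4.21%), held the largest numbers among assembled chromosomes.

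The fall that chose the members ranged on the log2 scale from -3.15 to -1.11 between control 20 d and control 5 d, with a median of -1.31, or a median 2.47-fold lower level at 20 d. The WD-to-control ratios had medians of 0.05 at 18 d and 0.01 at 20 d. These values are what the members were chosen for and were not tested. At the edge of the list the last 3 members had log2 ratios of control 20 d to control 5 d of -1.12, -1.12 and -1.11, and the next 3 genes had -1.11, -1.11 and -1.11, so the end of the list is a matter of its length and not of a gap. In control leaves of 5 d, 65 members averaged below 5 CPM, 50 lay between 5 and 20 CPM, 50 between 20 and 100 CPM and 35 at 100 CPM or more. CPM also depends on gene length, and levels of different genes are therefore not ranked as expression. A single gene, BnaA09g46780D, supplied 12.3% of the members' CPM in control leaves of 5 d and the top 5 supplied 43.9%.

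The members' summed share of a library's gene counts was 1.26% to 1.38% in WD 5 d, against 1.5% to 1.69% in control 5 d. At 11 d it was 0.779% to 0.996% in WD and 0.680% to 1.32% in control leaves. It was 0.602% to 1.03% in WD and 0.667% to 0.797% in control leaves at 18 d, and 0.463% to 0.715% in WD and 0.522% to 0.698% in control leaves at 20 d. The WD and control ranges overlapped at 11 d and did not at 5 d, where the control libraries had been picked as high. They also overlapped at 18 d and 20 d, where the rule had held each member's WD-to-control ratio near 1.

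**Figure D1:**
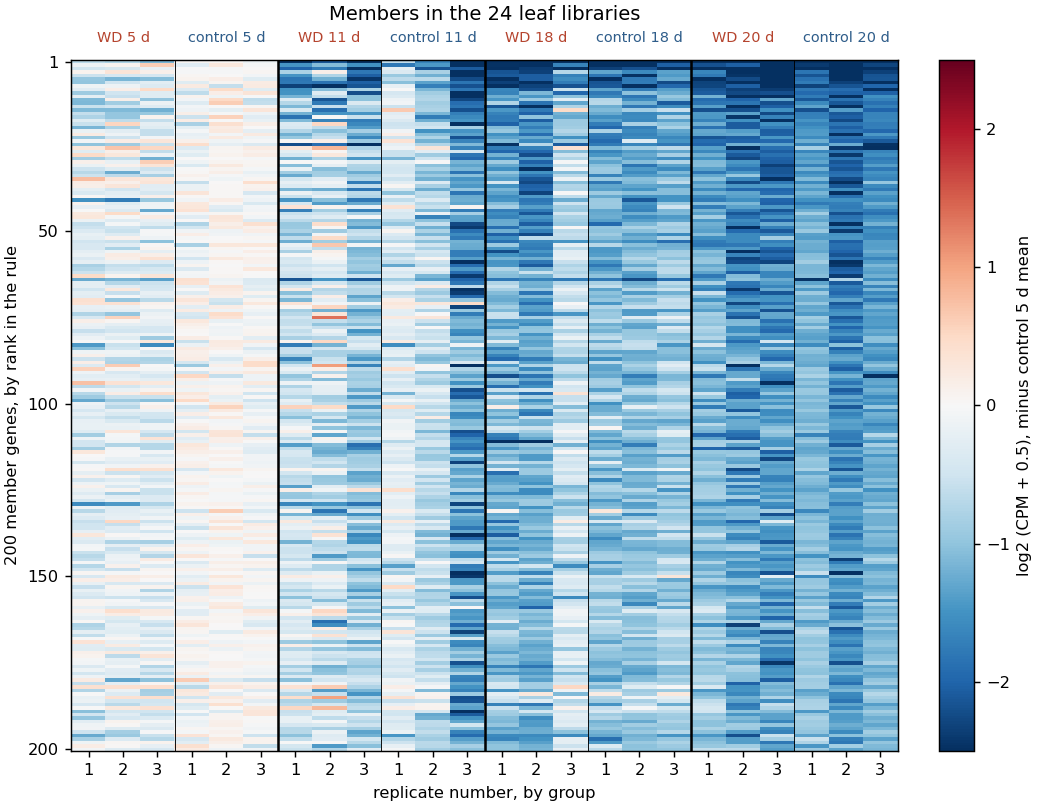
Heat map of the 200 members (y axis, by rank in the rule) in the 24 libraries (x axis, 3 replicates in each of 8 groups), with colour for log2(CPM + 0.5) minus the log2 of the control 5 d mean + 0.5. The column of control 11 d replicate 3 is as dark as the 20 d columns, and that of WD 18 d replicate 3 is paler than its 2 neighbours.

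To place the harvests that the rule had not used, the share of the fall completed was computed for each member and library as the distance from the control 5 d mean on the log2(CPM + 0.5) scale, divided by the distance between the control 5 d and control 20 d means. A share of 0 marks the level of control 5 d and 1 that of control 20 d. The median over members was 0.160, 0.166 and 0.181 in the WD 5 d libraries, against 0.00379, -0.0351 and 0.0176 in the control 5 d libraries, which define the 0. At 11 d it was 0.388, 0.355 and 0.659 in WD leaves, against 0.204, 0.462 and 1.01 in control leaves. The WD 11 d libraries all lay within the range of the control 11 d libraries, which ran over most of the way from 5 d to 20 d.

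At 18 d the median share was 0.855, 0.989 and 0.420 in WD leaves, against 0.797, 0.837 and 0.677 in control leaves. At 20 d it was 0.805, 1.03 and 1.12 in WD leaves, against 0.835, 1.21 and 0.963 in control leaves. Replicate 3 of WD 18 d was thus the only library of 18 d or 20 d below 0.5. In the group means, 91 members in WD 11 d and 109 in control 11 d had passed 0.5, against 176 in WD 18 d, 183 in control 18 d and 13 in WD 5 d. The closeness of the WD and control group means at 18 d and 20 d was set by the rule. Over all tested genes the WD 20 d libraries reached 0.544, 0.647 and 0.686 on the same line, and all 3 were below the members' medians in those libraries, which the rule had tied to the 20 d controls.

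**Figure D2:**
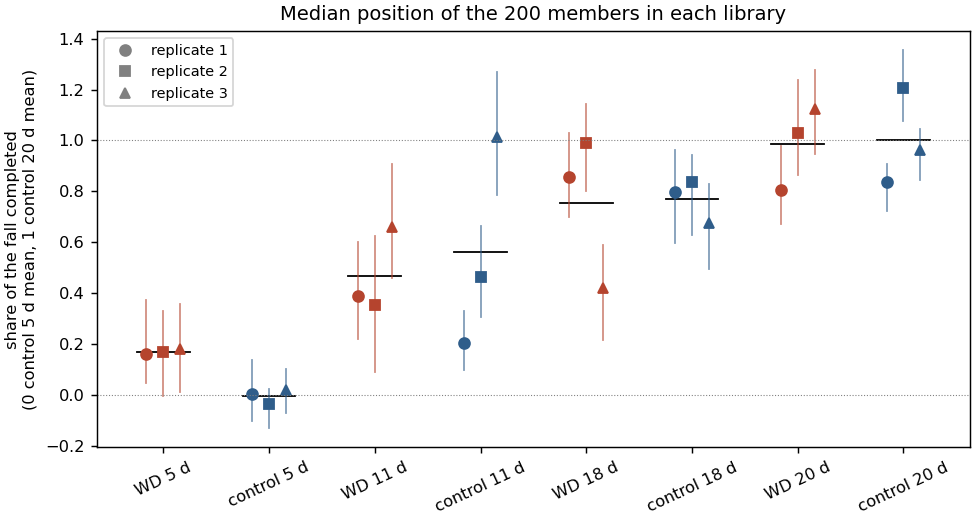
Median share of the fall completed over the 200 members in each library (points, by replicate number) with the quartiles of the members (vertical lines) and the mean of each group (black lines), for WD and control leaves at 5 d, 11 d, 18 d and 20 d. The 3 control 11 d libraries lie at 0.204, 0.462 and 1.01, and WD 18 d replicate 3 lies at 0.420.

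The members' spread between replicates followed the same picture. The median SD of log2 expression within a group was 0.70 for members and 0.38 for all tested genes in control 11 d, 0.48 and 0.33 in WD 18 d, 0.47 and 0.28 in WD 20 d, and 0.37 and 0.24 in control 20 d. In WD 11 d the members (0.32) varied about as much as all tested genes (0.33), and in both groups of 5 d both values lay between 0.22 and 0.25.

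The absence of a WD effect in the members depended on how libraries were scaled. With library totals, as in the rule, the median WD-to-control log2 ratio of all tested genes was -0.21 at 18 d and -0.30 at 20 d, so a member at 0 stood above the typical gene. With TMM, which sets libraries to a common level over most genes, the medians of all tested genes were 0.0046 and -0.04, and those of the members became 0.24 at 18 d and 0.27 at 20 d. Then 117 members at 18 d and 104 at 20 d stayed between -0.3 and 0.3, 83 and 96 lay above 0.3, none lay below -0.3, and 64 of 200 stayed inside at both harvests. The median log2 ratio of control 20 d to control 5 d was -1.53 under TMM, and the rule had fixed its direction. That deficit leaves these genes untouched is thus a statement about library totals. Between the 2 scalings the members' ratios moved up by a median of 0.21 at 18 d and 0.29 at 20 d. The counts above 0.3 and below -0.3 under TMM follow from the interval of the rule and this shift, and nothing is read from them. These ratios were not tested, since the rule used them.

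**Figure D3:**
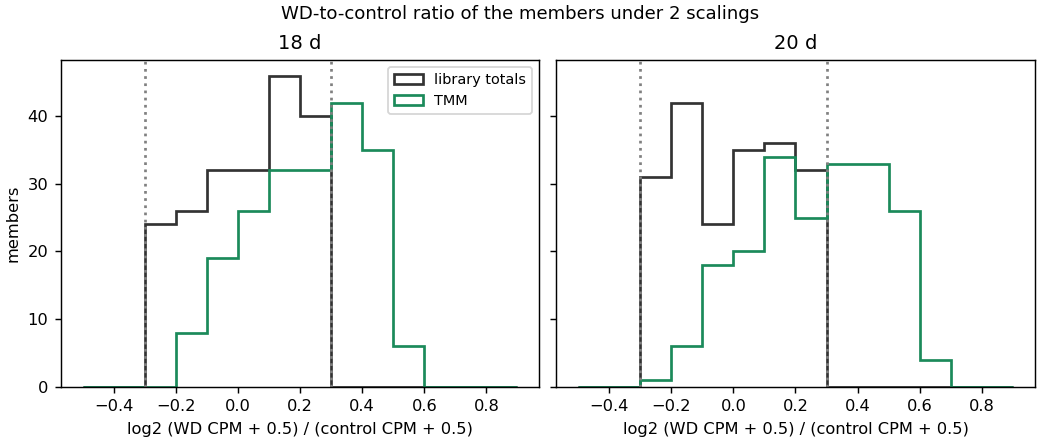
Number of members (y axis) by WD-to-control log2 ratio of mean CPM with 0.5 added (x axis, bins of 0.1) at 18 d and 20 d, with library totals and with TMM. Dotted lines mark -0.3 and 0.3, between which all 200 members lie with library totals by construction, while 117 at 18 d and 104 at 20 d do with TMM.

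The 18 d ratio also moved with the library left out. The rule had set the interval with all libraries, so leaving one out can only move members outside it. With library totals, the members' median log2 ratio of WD 18 d to control 18 d was 0.05, and without WD 18 d replicate 3 it was -0.20, with 123 members inside the interval, 73 below -0.3 and 4 above 0.3. Without WD 18 d replicate 2 the median was 0.20, with 126 members inside the interval, 6 below -0.3 and 68 above 0.3. Leaving out any other library of 18 d gave medians from 0.03 to 0.12. At 20 d the median lay between -0.14 and 0.12 when any library was left out.

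At 5 d the members had a median WD-to-control log2 ratio of -0.25, against 0.02 over all tested genes, with 87 members below -0.3, 5 above 0.3 and 108 between. The control 5 d libraries had been picked as high, which pulls this ratio down, and it is given without a test.

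The effect of WD at 11 d could be tested, because none of its 6 libraries entered the rule. All 200 members passed the filter on low counts, as the rule ensures. By edgeR's quasi-likelihood test with Benjamini-Hochberg adjustment over the 54835 tested genes, 2 members were lower in WD 11 d than in control 11 d (1.0%, against 7.72% of tested genes) and 1 was higher (0.5%, against 3.6%). At an unadjusted p of 0.05 it was 5 lower and 4 higher, against 8398 and 5409 of the 54835 genes (15.3% and 9.86%). DESeq2 called 3 members lower and 2 higher, against 9.42% and 4.54% of tested genes. The median log2 fold change was 0.09, against -0.0014 over all tested genes. In CPM, all 3 WD libraries were below all 3 control libraries for 3 members (1.5%, against 8.54% of tested genes). They were above them for 3 members (1.5%, against 9.81% of tested genes).

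The share of members called was below that of all tested genes, in a harvest whose control libraries lay far apart in the members (median SD 0.70, against 0.38 over all tested genes), and the part of that spread in the count was not tested. As ratios of mean CPM with library totals, 114 members (57.0%) lay between -0.3 and 0.3 at 11 d, against 51.4% of tested genes, 57 above and 29 below, with a median of 0.05. Without control 11 d replicate 3, the median was -0.19, with 72 members below -0.3 and 17 above 0.3. By edgeR's test, 2 members were then called lower in WD, against 1.68% of tested genes, and 0 higher, against 1.0%. Without control 11 d replicate 1 it was 0.33, with 12 below and 107 above, and edgeR's test then called 1 member lower in WD, against 12.4% of tested genes, and 9 higher (4.5%), against 5.38%. Without WD 11 d replicate 1, 2 or 3, edgeR's test called 0 members lower, against 5.01%, 3.92% and 3% of tested genes. Each of these 3 fits called 1 member higher, against 3.67%, 2.67% and 1.34% of tested genes. The direction of the members' median at 11 d thus changed with the control library left out.

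**Figure D4:**
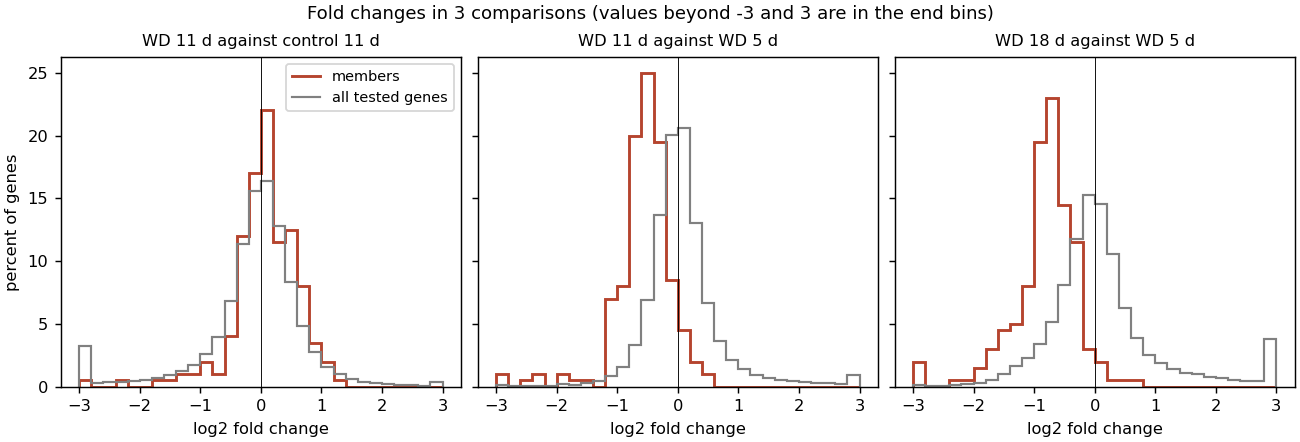
Distribution of log2 fold changes (x axis, bins of 0.2, TMM-scaled edgeR fit) as percent of genes (y axis) for the 200 members and all 54835 tested genes in 3 comparisons. The members centre at 0.09 in WD 11 d against control 11 d, at -0.52 in WD 11 d against WD 5 d and at -0.75 in WD 18 d against WD 5 d, the last not a test since the rule used WD 18 d.

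The one member that edgeR called higher in WD 11 d than in control 11 d was BnaAnng06210D. It is annotated as hydroxymethylbilane synthase (porphobilinogen deaminase), an enzyme of the tetrapyrrole pathway that leads to chlorophyll and heme. It had 25.8, 29.8 and 19.8 CPM in WD 11 d, against 13.0, 14.7 and 8.95 CPM in control 11 d. The groups did not overlap, and the WD leaves of 11 d were at the level of 5 d leaves, with 22.1, 27.1 and 27.5 CPM in WD 5 d and 19.5, 25.2 and 26.6 CPM in control 5 d. The log2 fold change of WD 11 d against control 11 d was 1.05 (SE 0.24, n = 3 each, edgeR's quasi-likelihood test, adjusted p = 0.0092). The call held in 5 of 6 fits that each left out 1 library. It was lost without control 11 d replicate 3, the library that stood near the 20 d controls (edgeR's quasi-likelihood test, adjusted p = 0.0776).

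Later the same gene was low in both treatments. It had 11.9, 10.5 and 22 CPM in WD 18 d, against 14.2, 12.8 and 15.6 CPM in control 18 d. At 20 d it had 13.0, 10.3 and 9.76 CPM in WD leaves, against 13.2, 7.73 and 9.72 CPM in control leaves. Replicate 3 of WD 18 d was again near the level of 5 d, while the other WD 18 d libraries lay below every control 18 d library. The libraries of 20 d overlapped between treatments. Its log2 fold change in WD 11 d against WD 5 d was -0.14 (SE 0.23), with an adjusted p of 0.881 by edgeR's quasi-likelihood test.

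The members that edgeR called lower in WD 11 d than in control 11 d had low counts. BnaA03g37650D had 0.441, 0.663 and 0.255 CPM in WD 11 d, against 3.24, 2.12 and 1.53 CPM in control 11 d. The groups did not overlap, with 4 to 11 pairs per WD library and 25 to 44 per control library, and the log2 fold change was -2.38 (SE 0.60, edgeR's quasi-likelihood test, adjusted p = 0.0161), called in 2 of 6 fits with a library left out. Its 5 d level was 1.65, 1.85 and 2.45 CPM in WD leaves, against 5.43, 3.24 and 2.88 CPM in control leaves.

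BnaC05g20320D had 1, 0 and 2 pairs in WD 11 d, against 26, 5 and 2 pairs in control 11 d. The control libraries spread over the range from the 5 d level (41, 18 and 62 pairs in control 5 d) to that of WD leaves, and control replicate 3 overlapped with them. The ratio of WD 11 d to control 11 d was 0.0794 (95% exact interval 0.0156 to 0.253 from the pooled counts, which covers counting error only). The edgeR test gave an adjusted p of 0.0453 after Benjamini-Hochberg adjustment, kept in 1 of 6 fits with a library left out.

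Within WD leaves, most members had lower values at 11 d than at 5 d, and few passed the test. None of the 6 libraries of this comparison entered the rule, and soil water and leaf age change together in it. The log2 fold change of WD 11 d against WD 5 d was negative in 185 of 200 members, with a median of -0.52, against 0.02 over all tested genes. By edgeR's quasi-likelihood test with Benjamini-Hochberg adjustment, 2 members were lower (1.0%, against 0.193% of tested genes) and 0 were higher (against 0.301% of tested genes). At an unadjusted p of 0.05, 61 members were lower and 0 higher, against 2791 and 3899 of the 54835 genes, and DESeq2 called 22 lower and 0 higher, against 1.02% and 1.8% of tested genes. All 3 WD 11 d libraries lay below all 3 WD 5 d libraries in CPM for 74 members (37%, against 5.41% of tested genes). They lay above them for 0 members, against 17.3% of tested genes. Leaving out any of the 6 libraries left 0 members called. These fits called 0.0128% to 0.137% of tested genes lower and 0.011% to 0.505% higher.

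The calls were BnaA08g16090D and BnaC05g20320D. BnaA08g16090D had 39.6, 37.0 and 30.4 CPM in WD 11 d, against 76.5, 75.6 and 71.5 CPM in WD 5 d. The groups lay far apart, and the log2 fold change was -1.18 (SE 0.26, edgeR's quasi-likelihood test, adjusted p = 0.0477). In the controls of 11 d it had 75.6, 59.3 and 43.7 CPM, all above the WD 11 d libraries, with a fold change of WD 11 d against control 11 d of -0.72 (SE 0.26) that missed the threshold (edgeR, adjusted p = 0.0783). BnaC05g20320D had 1, 0 and 2 pairs in WD 11 d, against 33, 29 and 27 pairs in WD 5 d, a ratio of 0.0306 (95% exact interval 0.00618 to 0.0922, counting error only), with an adjusted p of 0.0317 by edgeR's quasi-likelihood test.

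WD 18 d, the stage of long mild deficit, was set beside WD 5 d as a description only. The rule held the WD 18 d level of each member near that of control 18 d, so low values there follow in part from the choice of members, and nothing is read from the counts. With library totals the log2 ratio of WD 18 d to WD 5 d was negative in 193 members, with a median of -0.71, against -0.05 over all tested genes. All 3 WD 18 d libraries lay below all 3 WD 5 d libraries in CPM for 118 members (59%, against 15.6% of tested genes). They lay above them for 0 members, against 14.6% of tested genes. Without WD 18 d replicate 3 the median was -1.0, and without any other library of these groups it lay between -0.75 and -0.58.

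The second annotated member, BnaCnng38690D, is a translation initiation factor IF-1, a protein of bacterial-type translation. It had 4.68, 6.14 and 4.84 CPM in WD 11 d, against 6.71, 5.37 and 4.84 CPM in control 11 d. The groups overlapped, with a log2 fold change of -0.10 (SE 0.23, edgeR's quasi-likelihood test, adjusted p = 0.847). Against WD 5 d, where it had 8.01, 7.76 and 5.46 CPM, the log2 fold change of WD 11 d was -0.54 (SE 0.23, edgeR's quasi-likelihood test, adjusted p = 0.332). It had 2.81, 3.43 and 3.87 CPM in WD 18 d and 3.09, 3.58 and 3.19 CPM in WD 20 d. In control leaves it had 11.6, 11.8 and 11.3 CPM at 5 d, 4.26, 3.63 and 2.76 CPM at 18 d and 4.85, 2.45 and 4.19 CPM at 20 d. Its WD 5 d libraries were all below the control 5 d libraries, a comparison left untested because the rule used control 5 d.

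The member with the lowest rule value was BnaC02g02240D, at -3.15 on the log2 scale. It averaged 19.5 ± 3.46 CPM in WD 5 d and 35.7 ± 2.94 CPM in control 5 d (SD, n = 3 each). At 11 d it had 4.52, 7.65 and 1.53 CPM in WD leaves, against 23.3, 10.9 and 5.45 CPM in control leaves. Control replicates 1 and 2 lay above all WD libraries, and replicate 3 lay among them, with a fold change of -1.56 (SE 0.63, edgeR, adjusted p = 0.123). At 18 d it had 2.60, 3.08 and 5.17 CPM in WD leaves, against 1.92, 2.86 and 4.98 CPM in control leaves. Both groups of 18 d lay below the WD 5 d libraries of 22.3, 20.5 and 15.6 CPM. WD 11 d also lay below WD 5 d in all libraries, with a log2 fold change of -2.27 (SE 0.63) that missed the threshold (edgeR's quasi-likelihood test, adjusted p = 0.11).

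BnaA04g09390D, the next in rank, had 1.76, 2.47 and 1.72 CPM in WD 11 d, against 1.33, 1.84 and 0.552 CPM in control 11 d and 5.28, 6.12 and 9.16 CPM in WD 5 d. The 11 d groups overlapped, and WD 11 d lay below WD 5 d in all libraries, with a log2 fold change of -1.89 (SE 0.51) that missed the threshold (edgeR's quasi-likelihood test, adjusted p = 0.0976). It had 0.631, 0.533 and 1.49 CPM in WD 18 d, against 0.498, 0.488 and 1.03 CPM in control 18 d. Replicate 3 was the highest library in each group of 18 d.

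**Figure D5:**
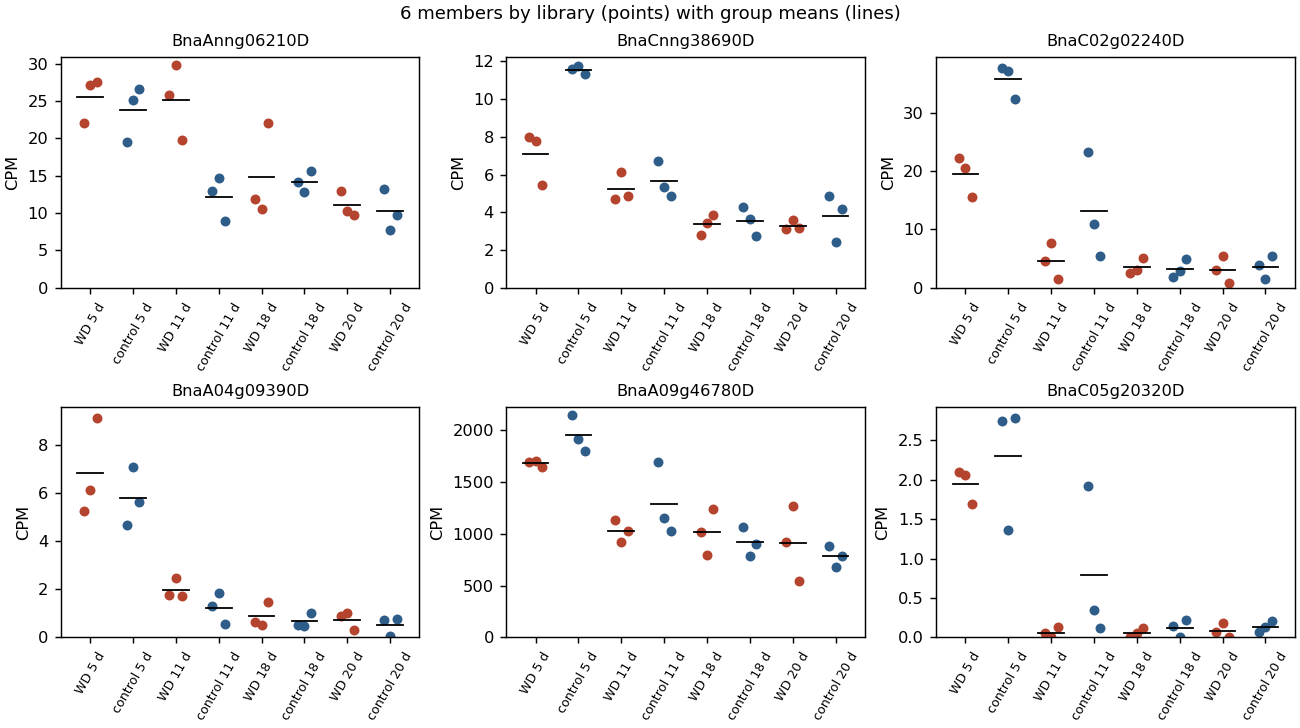
Level in CPM (y axis, from 0) of 6 members in the 24 libraries (points, red for WD and blue for control) with group means (lines), at 5 d, 11 d, 18 d and 20 d. BnaAnng06210D is the 1 member called higher in WD 11 d than in control 11 d, and BnaC05g20320D has 1, 0 and 2 pairs in WD 11 d, against 33, 29 and 27 pairs in WD 5 d.

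Some members ended near 0 pairs. BnaC02g36390D had 4, 6 and 0 pairs in WD 11 d, against 24, 23 and 32 pairs in WD 5 d, with a log2 fold change of -3.37 (SE 0.88) that missed the threshold (edgeR's quasi-likelihood test, adjusted p = 0.106). Its 11 d controls had 26, 2 and 3 pairs, so replicate 1 alone was near the 5 d controls with 36, 31 and 53 pairs. It had 0, 1 and 0 pairs in WD 18 d, against 1, 2 and 0 pairs in control 18 d, and 0 pairs in all 6 libraries of 20 d.

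BnaC05g20320D had 0, 1 and 2 pairs in WD 18 d, against 2, 0 and 4 pairs in control 18 d, and no more than 3 pairs in any library of 20 d. BnaC02g41660D had 6, 5 and 3 pairs in WD 11 d, against 12, 9 and 5 pairs in control 11 d and 15, 22 and 30 pairs in WD 5 d. Against WD 5 d the log2 fold change of WD 11 d was -2.52 (SE 0.71, edgeR's quasi-likelihood test, adjusted p = 0.113). At 18 d it had 1, 0 and 6 pairs in WD leaves, against 2, 5 and 2 pairs in control leaves.

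The 2 members with the highest CPM in control 5 d were not called by edgeR in WD 11 d against control 11 d or in WD 11 d against WD 5 d. BnaA09g46780D averaged 1678 ± 34.0 CPM in WD 5 d and 1948 ± 179 CPM in control 5 d, 1027 ± 106 CPM in WD 11 d and 1288 ± 355 CPM in control 11 d, 1020 ± 221 CPM in WD 18 d and 916 ± 142 CPM in control 18 d, and 912 ± 362 CPM in WD 20 d and 780 ± 98.7 CPM in control 20 d (SD, n = 3 each). Its log2 fold change in WD 11 d against WD 5 d was -0.81 (SE 0.28), lower than the members' median of -0.52 (edgeR's quasi-likelihood test, adjusted p = 0.213). BnaCnng55860D averaged 651 ± 169 CPM in WD 11 d and 1285 ± 166 CPM in WD 5 d (SD, n = 3 each), with a log2 fold change of -1.11 (SE 0.34) and an adjusted p of 0.145 by the same edgeR test. DESeq2 (adjusted p = 0.0381) and edgeR on the 12 libraries of 5 d and 11 d alone (adjusted p = 0.0471) called this gene, and over all settings without a library left out its adjusted p reached up to 0.176.

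BnaA06g39970D showed how far replicates of 1 group could lie apart. It had 25.8, 49.7 and 12.7 CPM in WD 11 d, against 34.9, 25.4 and 4.53 CPM in control 11 d. At 18 d it had 9.68, 8.52 and 27.4 CPM in WD leaves, against 18, 14.5 and 17.4 CPM in control leaves. Control 11 d replicate 3 was lower than any library of 18 d, and WD 18 d replicate 3 was higher than every other library of 18 d. In WD 5 d it had 48, 56.4 and 49.1 CPM, and the log2 fold change of WD 11 d against WD 5 d was -0.96 (SE 0.65, edgeR's quasi-likelihood test, adjusted p = 0.621).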

How the data were processed

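The authors trimmed paired reads with Trimmomatic 0.36, removed rRNA reads with sortMeRNA 2.1 and mapped and counted pairs with STAR 2.7.3a on the *B. napus* genome (Genoscope annotation V5), allowing up to 20 loci. The deposited values are raw counts of pairs per gene for each strand setting, with no normalization, and the reverse-strand count was used. CPM and log2 ratios were computed from these counts with library totals and a pseudocount of 0.5.

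The 54835 genes that reached 0.6 CPM in 3 or more libraries were scaled by TMM and fitted with edgeR 4.0.16 (limma 3.58.1, R 4.3.3) in 1 model of 8 groups, all 24 libraries and the replicate number as a factor, as in the model of the study. Contrasts were tested by edgeR's quasi-likelihood test with Benjamini-Hochberg adjustment over all tested genes and a threshold of 0.05. The comparison of WD 18 d with WD 5 d was planned as a test and is given as a description, because the WD 18 d libraries entered the rule. Standard errors were computed back from the F statistic and are approximate. DESeq2 1.42.0 and other settings were run as alternatives. Tables and plots were made with Python 3.11.15, pandas 2.3.3, numpy 2.4.6 and matplotlib 3.10.9.

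The members, the gene lists, the genes named and the comparisons were chosen with earlier results of these data known. The genes named are part of those set by rule (the 20 lowest rule values, the 3 last members, the 5 highest levels in control 5 d, up to 3 largest calls in each direction per comparison), with both annotated members and BnaA08g16090D under the last clause. Replicates are separate pools of plants, and p-values measure the spread between them. Sequences were not used here.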

Additional observations from a re-analysis of the deposited data

How the results depend on the processing

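Counts of called members varied with the setting. For the genes named, over all settings and the 3 comparisons, 50 values lost their call, 15 gained one and 429 stayed on their side of the threshold, with no called value turning its direction. These values include those of WD 18 d against WD 5 d, so the tally is not one of tests alone. In WD 11 d against control 11 d, the main fit called 2 members lower and 1 higher, against 7.72% and 3.6% of tested genes. DESeq2 called 3 lower and 2 higher, against 9.42% and 4.54%. Leaving out 1 library gave 1 to 10 called members. These fits called 1.68% to 12.4% of tested genes lower and 1% to 5.38% higher. In WD 11 d against WD 5 d, the main fit called 2 members lower, against 0.193% of tested genes. DESeq2 called 22 lower, against 1.02%, and no filter on low counts 1, against 0.109%. A model of the 12 libraries of 5 d and 11 d called 13 lower, against 0.301%. Leaving out 1 library left 0, against 0.0128% to 0.137%. None of these fits called a member higher, against 0.011% to 1.8% of tested genes. In WD 18 d against WD 5 d, which is no test of the members because the rule used the WD 18 d libraries, leaving out 1 library gave 3 to 97, against 40. Over the fits that each left out 1 library, the members' median log2 fold change ranged from -0.18 to 0.41 in WD 11 d against control 11 d. It ranged from -0.64 to -0.47 in WD 11 d against WD 5 d and from -1.05 to -0.59 in WD 18 d against WD 5 d. Library totals in place of TMM were an alternative chosen after seeing the data. They gave 2 members lower and 1 higher in WD 11 d against control 11 d, against 7.66% and 3.15% of tested genes. In WD 11 d against WD 5 d they gave 2 lower and 0 higher, against 0.195% and 0.855%. The cause of these differences was not tested, except that a fit without a library has fewer samples.

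Over all groups, libraries of the same replicate number were not more alike than others. The mean correlation of their deviations between groups was -0.0089, against 0.0053 for different numbers. Whether numbers link the libraries of WD 11 d and control 11 d alone was not tested. Correlations of deviations between libraries of the same number were 0.02, 0.36 and 0.33 for WD 11 d with control 11 d, -0.09, 0.16 and -0.18 for WD 11 d with WD 5 d and -0.01, -0.03 and -0.06 for WD 18 d with WD 5 d, and 4, 1 and 0 of 6 libraries correlated best with their own number. With no replicate block, WD 11 d against control 11 d had 2 members lower and 1 higher, against 8.9% and 3.97% of tested genes. WD 11 d against WD 5 d then had 2 lower and 0 higher, against 0.212% and 0.423%.

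The list itself changed most with scaling. Of 200 members, 64 were also chosen with TMM-scaled CPM, 122 with a pseudocount of 2, 95 with an interval of -0.2 to 0.2, and 100 when 100 were kept. The mean share of the fall in WD 5 d was 0.188 with a pseudocount of 2, against 0.169. Precision is set by 3 libraries per group and, for members under 5 CPM, by counts of a few pairs.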
